A study of Schizosaccharomyces pombe with 6 samples.

Results

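The transcripts that stood on the same side of wild type in every library of both deletion strains were examined in Schizosaccharomyces pombe, a fission yeast. A feature of the deposited RPKM table (reads scaled to the length of the feature and the size of the library) was taken when all 4 mutant libraries, 2 from red1Δ cells and 2 from mug174Δ cells, lay above both wild-type (WT) libraries or below both of them after scaling. Of 7001 features listed, 5938 reached 1 RPKM in at least 2 libraries and entered the comparison, 4751 of them with a protein-coding identifier and 1187 with a non-coding one. All 4 mutant libraries lay above both WT libraries for 1380 features and below them for 1475, which makes 2855 of the 5938.

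Red1 is a core subunit of MTREC, a nuclear complex that hands RNAs to the exosome for degradation. With the RNA-binding protein Mmi1 it removes meiotic transcripts from dividing cells, so that genes of meiosis and spore formation stay silent during vegetative growth. Mug174, named for its rise in meiosis, is described by the study as the fission yeast counterpart of Coilin, the scaffold protein of Cajal bodies, nuclear bodies where small nuclear and nucleolar RNPs mature.

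The study sequenced whole-cell RNA of 3 strains with 2 libraries each: the red1 deletion strain red1Δ, the mug174 deletion strain mug174Δ, and WT. All strains were grown without treatment at 32 °C in YES, a rich medium of yeast extract and glucose to which adenine, uracil and amino acids are added. No library of any strain had a read on ura4, a gene of uracil synthesis that is commonly removed from laboratory strains, so all 3 strains share its absence from the data. The study describes the sequencing of mug174Δ and WT as independent experiments, whereas the sources used here do not say how the red1Δ replicates were grown, and spread between the red1Δ libraries may be technical.

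The deletions were visible in the table. The red1 gene (SPAC1006.03c) had 1 and 2 reads in the red1Δ libraries, against 2457 and 2117 in WT, and mug174 (SPCC1682.03c) had 1 and 0 reads in the mug174Δ libraries, against 739 and 657 in WT. Each library held between 16565908 and 18627129 reads on listed features. Ribosomal RNA took 2.87% and 2.97% of reads in red1Δ and 4.71% and 3.85% in mug174Δ, against 6.25% and 5.93% in WT, and its part in the results was not tested. The red1Δ libraries differed from each other more than those of the other strains, with a median absolute log2 difference of 0.18 between replicates, against 0.10 in mug174Δ and 0.11 in WT. Markers of cells of mating type M summed to 183 and 196 RPKM in red1Δ and 182 and 181 in mug174Δ, against 141 and 135 in WT, with mfm3 at 0 in all 6 libraries and 3 of the 5 markers tested above WT in all 4 mutant libraries. Markers of type P summed to 57.7 and 47.3 RPKM in red1Δ and 64.1 and 59.5 in mug174Δ, against 58.3 and 58.0 in WT, so both kinds of marker were detected in every strain.

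All levels below are RPKM after scaling each library by its median ratio to a mean library, and all log2 differences are on the log2(RPKM + 0.5) scale, which understates the change of weakly expressed features. A feature was called raised or lowered when the mean of the 2 deletion strains differed from WT with an adjusted p under 0.05 (limma, Benjamini-Hochberg over all 5938). By that test 1022 features were raised (17.2%) and 1021 were lowered (17.2%). The 1380 features above WT in all 4 mutant libraries were 23.2% of those tested, and 895 of them were called raised. The 1475 below WT were 24.8%, and 969 of them were called lowered. Called in each strain separately with the same sign were 376 raised (6.33%) and 446 lowered (7.51%) features; the 2 strain comparisons share the WT libraries, so this overlap is a count and not a second piece of evidence. These counts moved most with single libraries: they were 23 raised and 33 lowered without mug174Δ replicate 1, 55 and 60 without mug174Δ replicate 2, 64 and 54 without WT replicate 1, 91 and 59 without WT replicate 2, and the lowered count was 733 without red1Δ replicate 1 and 687 without red1Δ replicate 2. Without scaling, the median log2 difference over all tested features was 0.27 for the 2 strains together, 0.35 for red1Δ and 0.18 for mug174Δ, and the calls became 2492 raised and 464 lowered, with 2846 features above and 566 below WT in all 4 mutant libraries. All changes described here are therefore relative to the typical transcript of each library. Counts of calls also rested on the WT pair: without WT replicate 1 they were 346 raised and 254 lowered, and without WT replicate 2 they were 341 and 250. Leaving out mug174Δ replicate 1 gave 595 and 506, and leaving out mug174Δ replicate 2 gave 643 and 579.

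The features nearest to the limits show what the choice means. Just inside it on the upper side was suc22, the small subunit of ribonucleotide reductase, with 363 and 336 RPKM in both red1Δ replicates and 509 and 427 RPKM in both mug174Δ replicates, against 313 and 336 RPKM in both WT replicates. The second red1Δ library and the second WT library are the same to 3 digits, so this feature is counted as above on a difference far smaller than the spread between replicates. Just outside was mok14, with 20.99 and 19.96 RPKM in both red1Δ replicates and 19.9 and 18.6 RPKM in both mug174Δ replicates, against 18.6 and 16.1 RPKM in both WT replicates, where one mutant and one WT library coincide. On the lower side ker1 lay just inside, with 217 and 169 RPKM in red1Δ, 228 and 235 in mug174Δ, against 292 and 235 in WT, and rnh201, a subunit of ribonuclease H2, just outside, with 53.9 and 44.7 RPKM in red1Δ, 51.6 and 46.8 in mug174Δ, against 61.03 and 53.9 in WT. Counts at the edge of either set thus rest on ties, and the features described below were named by size and by the test. For any single feature, an exact permutation test of 4 mutant libraries against 2 WT libraries cannot go below a two-sided p of 0.133.

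Features above and below WT were of different kinds. Of the 1380 above, 962 were protein-coding and 418 non-coding, and of the 1475 below, 1351 were protein-coding and 124 non-coding. The protein-coding genes above WT were less expressed in WT cells, with a median level of 36.8 RPKM, against 69.5 RPKM for all tested protein-coding genes, while those below had a median of 138 RPKM. The choice of features fixes that those above take a larger share of reads in the mutants and those below a smaller one, so the shares only give their size. Together the features above took 11.3% and 14.4% of reads in red1Δ and 10.4% and 10.3% in mug174Δ, against 6.84% and 6.77% in WT. The features below took 44.7% and 41.02% of reads in red1Δ and 43.9% and 43.5% in mug174Δ, against 56.2% and 56.4% in WT. Transcripts with introns were about as common above (47.4%) and below (49.5%) as among all tested protein-coding genes (47.4%). In whole-culture RNA, a change in every cell and a change in the share of cells that express a gene cannot be told apart.

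The genes that stood highest above WT in both strains included genes of meiosis and nuclear fusion and genes of metabolism. Of the 12 protein-coding genes with the largest rise in the less affected strain, 6 are known from meiosis or nuclear fusion: meu13, tht2, dli1, mug45, rec25 and dic1. The plot of these 12 genes by library shows red1Δ far above mug174Δ for the meiotic genes and the 2 strains side by side for most of the others.

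**Figure D1:**
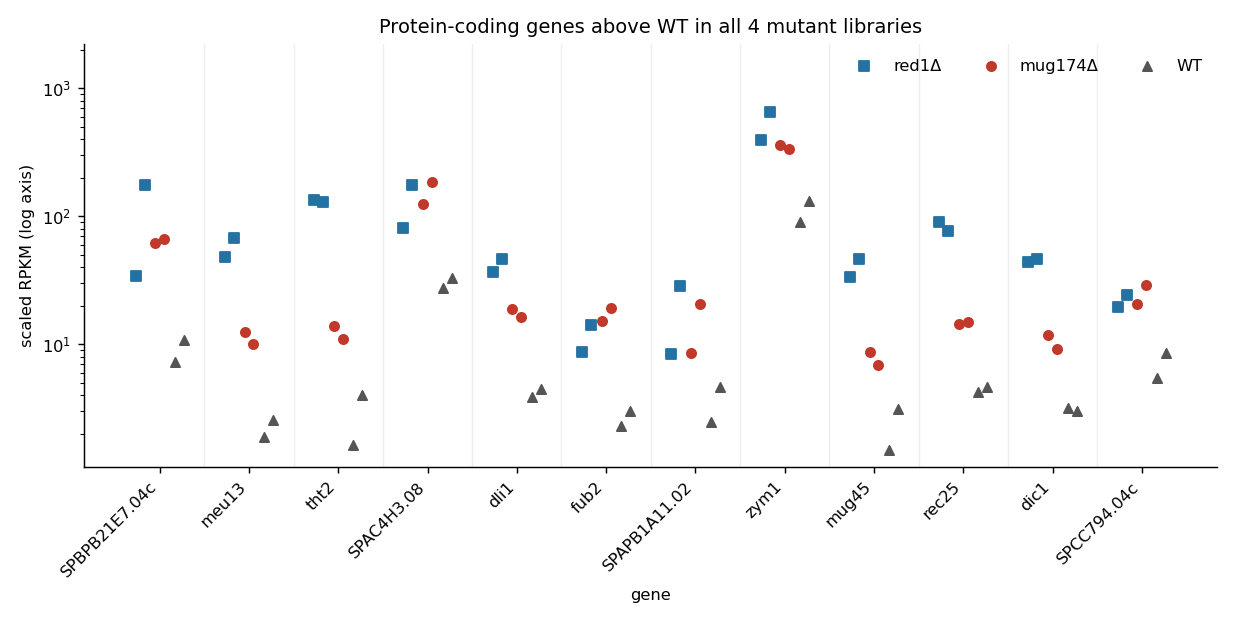
Level of the 12 raised protein-coding genes in each library, as scaled RPKM on a log axis, with squares for red1Δ, circles for mug174Δ and triangles for WT, 2 points per strain. Every mutant point lies above both WT points of its gene, and in meu13 the red1Δ libraries reach 47.8 and 67.5 RPKM.

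Meiotic transcripts that Mmi1 marks for removal formed the clearest group above WT. Of 15 listed Mmi1 targets, all tested, 9 lay above WT in all 4 mutant libraries and none below, and 14 were called raised and none lowered. Their median log2 difference was 4.25 in red1Δ and 0.73 in mug174Δ, beside −0.00 and 0.01 over all tested features. The meiRNA sme2 (SPNCRNA.103, chrII:339346-340012), the non-coding RNA that captures Mmi1 in meiosis, had 125 and 155 RPKM in both red1Δ replicates and 9.17 and 6.80 RPKM in both mug174Δ replicates, against 3.40 and 2.97 RPKM in both WT replicates. Both red1Δ libraries were the highest by a wide margin and both mug174Δ libraries still exceeded WT (log2 difference 3.22, SE 0.16, adjusted p = 0.000338). The transcription factor gene mei4 (SPBC32H8.11, chrII:1473194-1474747), which drives the middle meiotic programme, had 136 and 149 RPKM in both red1Δ replicates and 10.6 and 10.9 RPKM in both mug174Δ replicates, against 6.47 and 7.77 RPKM in both WT replicates. Its mug174Δ libraries stood only a little above WT, with a log2 difference of 0.56 (SE 0.12, adjusted p = 0.0271), against 4.23 (SE 0.12, adjusted p = 3.11e-05) in red1Δ. The meiotic cyclin gene crs1 (SPBC2G2.09c, chrII:3452323-3453406) had 68.5 and 74.2 RPKM in red1Δ, 7.71 and 6.28 in mug174Δ, against 3.40 and 3.14 in WT. No mutant library of crs1 overlapped WT (log2 difference 2.62, SE 0.12, adjusted p = 0.000338).

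For 6 of the 15 targets the mug174Δ libraries overlapped WT and red1Δ alone stood apart. The microtubule-binding protein gene ssm4, which acts in the nuclear movements of meiotic prophase, had 123 and 119 RPKM in red1Δ, 7.49 and 7.48 in mug174Δ, against 6.49 and 7.77 in WT. Its mug174Δ libraries fell within the WT range, with a log2 difference of 0.07 (SE 0.12, adjusted p = 0.699). The meiotic cohesin gene rec8 had 229 and 226 RPKM in red1Δ, 2.66 and 4.19 in mug174Δ, against 2.29 and 5.32 in WT, so that mug174Δ overlapped WT while red1Δ did not. The same held for the spore formation gene spo5, with 188 and 198 RPKM in red1Δ, 2.99 and 4.94 in mug174Δ, against 1.44 and 3.06 in WT, where 1 of the 2 mug174Δ libraries lay just under the higher WT library. The kinase gene byr2 of the mating pathway was the 1 listed target that was not called, with 31.005 and 39.6 RPKM in red1Δ, 30.4 and 31.2 in mug174Δ, against 27.4 and 28.97 in WT. Its libraries stood in the required order, but by little more than their own spread (log2 difference 0.22, SE 0.11, adjusted p = 0.176). Between the strains, 14 of the 15 targets were higher in red1Δ than in mug174Δ (adjusted p under 0.05), beside 7.39% of all tested features. With 1 mean for all 4 mutant libraries in place of 1 per strain, only 1 of the 15 targets was called raised, since the distance between red1Δ and mug174Δ then counts as error.

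Mmi1 recognises short UNAAAC elements, of which UUAAAC is the form most often found in its targets. The letters TTAAAC were searched on the sense strand of the annotated sequence (RefSeq, ASM294v3). They occurred in 13 of the 14 targets with a sequence, at 1.75 matches per kilobase, beside 0.336 per kilobase over all tested protein-coding genes, of which 33.3% had a match. The protein-coding genes above WT as a whole had 0.378 matches per kilobase and those below 0.317. Windows of 30 bases around the first match in the coding sequence are shown for 6 targets whose mutant libraries all exceeded WT, 5′ to 3′ on the coding strand with TTAAAC in capitals, since this is the element by which Mmi1 is known to recognise RNAs.
mei4, chrII:1473584-1473613, + strand: cacaacctttcaTTAAACaaagcctttatc
crs1, chrII:3453356-3453385, - strand: tttagcttattcTTAAACactcccgctatt
meu13, chrI:978438-978467, + strand: gaaatggtaccgTTAAACaaatttccaagg
mug10, chrI:1371133-1371162, + strand: aaggggaagcttTTAAACcgtcatttggca
mug4, chrIII:808718-808747, - strand: tctcagtttcgcTTAAACtacacaattata
mug45, chrII:3638447-3638476, + strand: acttggccaataTTAAACtatactggaacg
Among them mug45 and crs1 held 5 matches each, mei4 and mug4 held 4, and meu13 and mug10 held 2. The targets meu1 and byr2, whose mutant libraries also all exceeded WT, held 1 match each and are not shown. A match is a description of the letters and not a measured binding site.

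Genes of meiotic recombination overlap this list in meu13, mcp7 and rec8 and behaved alike. Of 14 tested, 7 lay above WT in all 4 mutant libraries and 1 below, 10 were called raised and none lowered, and the median log2 difference was 2.60 in red1Δ and 0.43 in mug174Δ. The gene rec25 (SPAC17A5.18c, chrI:1753207-1753659), which encodes a part of the linear elements on which meiotic chromosomes recombine, had 89.5 and 76.8 RPKM in both red1Δ replicates and 14.4 and 14.8 RPKM in both mug174Δ replicates, against 4.20 and 4.66 RPKM in both WT replicates. Replicates were close together and the 3 strains were well apart (log2 difference 2.85, SE 0.10, adjusted p = 0.000242). Rec10, the linear element protein to which Rec25 and Rec27 attach, had a transcript (SPAC25G10.04c, chrI:4301402-4303777) at 55.2 and 51.5 RPKM in red1Δ, 25.1 and 24.9 in mug174Δ, against 8.78 and 7.50 in WT. Here mug174Δ stood between red1Δ and WT, and its own log2 difference from WT was 1.56 (SE 0.11, adjusted p = 0.00199). The gene meu13 (SPAC222.15, chrI:977709-978637), the Hop2 counterpart that helps homologous chromosomes pair, had 47.8 and 67.5 RPKM in red1Δ, 12.5 and 10.03 in mug174Δ, against 1.88 and 2.53 in WT, and no mutant library overlapped WT (log2 difference 3.27, SE 0.19, adjusted p = 0.000489). The meiotic checkpoint kinase gene mek1 had 37.2 and 46.1 RPKM in red1Δ, 5.79 and 7.26 in mug174Δ, against 2.52 and 3.31 in WT, again with red1Δ far above and mug174Δ above WT (log2 difference 2.34, SE 0.17, adjusted p = 0.000828). TTAAAC was also found in rec10 and mek1, in the windows shown here, and not in rec25.
rec10, chrI:4303667-4303696, - strand: attcttgaatcgTTAAACccaaaagatgtt
mek1, chrI:5232535-5232564, + strand: ttctcaaacctcTTAAACattcccggctat
rec27, chrII:757903-757932, - strand: gttttggaagagTTAAACctcaaaaacatt
The gene rec27, whose protein joins Rec10 and Rec25 in the linear elements, carries 2 matches and had 38.1 and 42.3 RPKM in red1Δ, 10.1 and 10.1 in mug174Δ, against 5.84 and 7.86 in WT. All 4 mutant libraries lay above WT, although the mug174Δ difference on its own was 0.54 (SE 0.16, adjusted p = 0.0565). Of the 14, 8 held the letters TTAAAC. With 1 mean for all 4 mutant libraries only 2 of the 14 were called.

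Other meiotic genes above WT have roles in moving and joining nuclei. The gene tht2 (SPAC23C4.07, chrI:1040241-1040846), needed for the fusion of nuclei after mating, had 135 and 129.8 RPKM in both red1Δ replicates and 13.9 and 10.96 RPKM in both mug174Δ replicates, against 1.62 and 4.03 RPKM in both WT replicates. It showed the largest gap between the strains of the 12 genes plotted, a log2 difference of 3.37 (SE 0.34, adjusted p = 0.00319) of red1Δ over mug174Δ. The genes dli1 (SPAC458.04c, chrI:4737605-4738854) and dic1 (SPBC646.17c, chrII:958669-960389) encode chains of cytoplasmic dynein, the motor that pulls the nucleus to and fro in meiotic prophase. The dli1 transcript had 36.4 and 46.1 RPKM in red1Δ, 18.7 and 16.1 in mug174Δ, against 3.85 and 4.45 in WT, and dic1 had 43.4 and 46.1 RPKM in red1Δ, 11.9 and 9.21 in mug174Δ, against 3.15 and 3.03 in WT. Both were several times above WT in mug174Δ and higher again in red1Δ, with no overlap (log2 difference 2.55, SE 0.14, adjusted p = 0.000464 for dli1, and log2 difference 2.63, SE 0.13, adjusted p = 0.000338 for dic1).

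The wider lists of genes named for a rise in meiosis, of spore genes and of mating genes moved less. Of 98 tested genes with mug or meu names, which include several described above and mug174 itself, 38 lay above WT in all 4 mutant libraries and 6 below, with 37 called raised and 5 lowered, and their median log2 difference was 0.28 in red1Δ and 0.15 in mug174Δ. The raised count rested on the WT pair, with 20 called without WT replicate 1 and 15 without WT replicate 2. Of 21 spore formation genes, 7 lay above and 3 below, with 6 called raised, or 3 with either WT library left out. One was chs1, a chitin synthase gene of the spore wall, with 26.2 and 27.99 RPKM in red1Δ, 21.8 and 20.8 in mug174Δ, against 11.6 and 10.004 in WT, and no overlap between mutants and WT (log2 difference 1.12, SE 0.10, adjusted p = 0.00153). Another was spo2, a spindle pole protein of meiosis, with 51.1 and 57.7 RPKM in red1Δ, 65.99 and 64.3 in mug174Δ, against 35.4 and 32.02 in WT, where mug174Δ was the higher of the 2 strains (log2 difference 0.81, SE 0.09, adjusted p = 0.00242). Of 20 mating genes, 8 lay above and 2 below, with 6 called raised and 2 lowered. The share above was 33.3% in the spore list and 40% in the mating list. Over all tested features 23.2% lay above and 17.2% were raised. The P-factor receptor gene mam2, expressed in M cells, had 47.3 and 50.95 RPKM in red1Δ, 60.5 and 54.2 in mug174Δ, against 32.8 and 32.2 in WT, and the protease gene sxa2, which degrades P-factor, had 30.4 and 38.6 RPKM in red1Δ, 44.2 and 48.3 in mug174Δ, against 20.3 and 23.4 in WT. Both stood above WT in all 4 mutant libraries (log2 difference 0.70, SE 0.08, adjusted p = 0.00322 for mam2, and log2 difference 0.86, SE 0.12, adjusted p = 0.00536 for sxa2). The M-factor precursor genes parted: mfm1 had 72.99 and 56.1 RPKM in red1Δ, 26.8 and 21.8 in mug174Δ, against 17.1 and 14.3 in WT, whereas mfm2 had 15.4 and 29.3 RPKM in red1Δ, 34.1 and 39.6 in mug174Δ, against 54.99 and 47.9 in WT. So mfm1 was raised (log2 difference 1.30, SE 0.15, adjusted p = 0.00306) and mfm2 was lowered (log2 difference -0.86, SE 0.24, adjusted p = 0.0365).

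**Figure D2:**
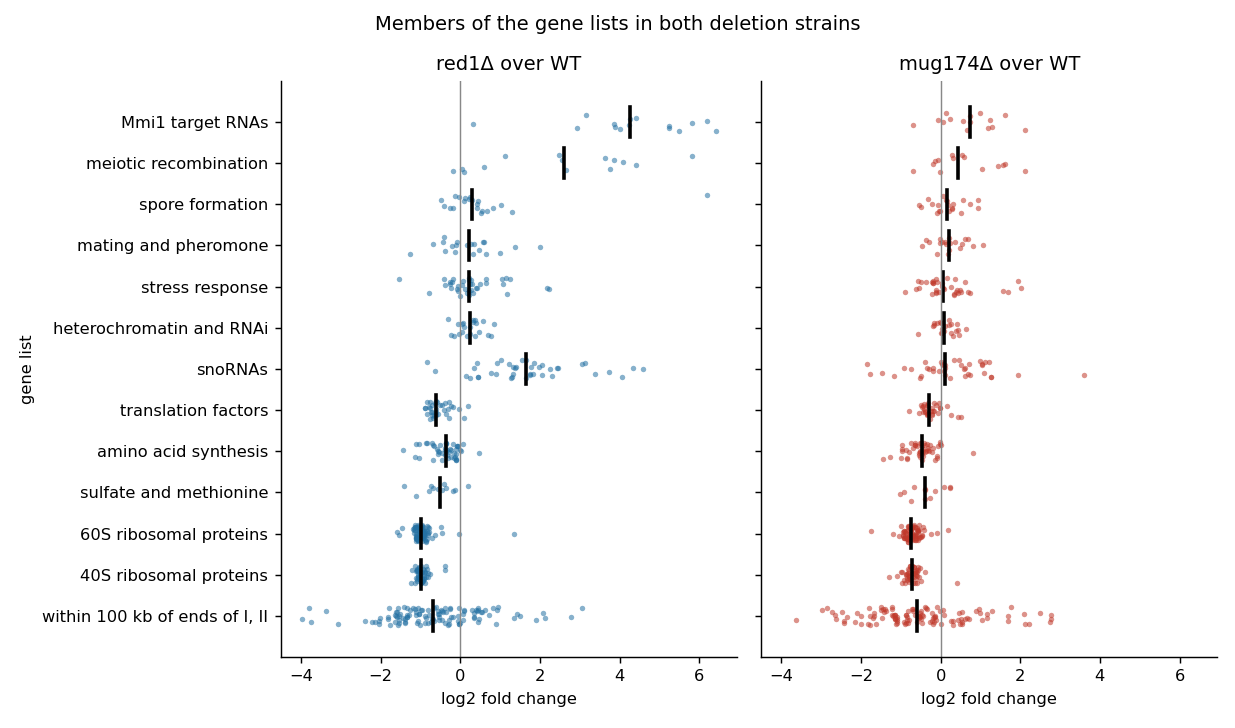
Log2 fold change over WT of every tested member of 13 gene lists, red1Δ in the left panel and mug174Δ in the right, with a black bar at each list's median. Mmi1 targets lie furthest right in red1Δ, at a median of 4.25, and the ribosomal protein lists lie left of 0 in both strains, at medians between −0.72 and −0.99.

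Non-coding RNAs were more often above WT than below. Of 1078 tested features named SPNCRNA, 383 lay above in all 4 mutant libraries and 111 below, 333 were called raised and 72 lowered, and the median log2 difference was 0.44 in red1Δ and 0.18 in mug174Δ. Without WT replicate 1 the calls were 127 and 16, without WT replicate 2 they were 122 and 21, without mug174Δ replicate 1 they were 208 and 39, and without mug174Δ replicate 2 the raised count was 229. SPNCRNA.1339 (chrII:329976-330635) had 6.69 and 9.33 RPKM in both red1Δ replicates and 8.81 and 7.03 RPKM in both mug174Δ replicates, against 0.837 and 0.500 RPKM in both WT replicates. All 4 mutant libraries stood at a similar height while WT was near the floor of detection (log2 difference 2.86, SE 0.22, adjusted p = 0.000902). SPNCRNA.1527 (chrII:2552926-2553784) had 3.90 and 8.70 RPKM in red1Δ, 18.2 and 14.9 in mug174Δ, against 0.928 and 1.61 in WT, with mug174Δ the higher strain (log2 difference 2.58, SE 0.33, adjusted p = 0.00395). SPNCRNA.513, one of the RNAs with the smallest p in this class, had 22.7 and 23.1 RPKM in red1Δ, 4.46 and 4.77 in mug174Δ, against 2.60 and 2.19 in WT, which put red1Δ far above mug174Δ and both above WT (log2 difference 1.92, SE 0.13, adjusted p = 0.000716). The other raised non-coding features named by size were SPNCRNA.307, SPNCRNA.497, SPNCRNA.464, snoR54 and SPNCRNA.473, with log2 differences between 1.76 and 2.69. SPNCRNA.307 had no read in 1 WT library.

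Features with nam names, most of them RNAs named for association with Mmi1, gave 3 above and 1 below of 6 tested, with 5 called raised. Fewer were called when WT replicate 1 or either mug174Δ library was left out. The 1 below was nam9 (SPBC13G1.01c), which carries a protein-coding identifier and was not called (adjusted p = 0.326). The 5 called raised were those with non-coding identifiers. Nam2 (SPNCRNA.1366, chrII:520406-522725) had 42.03 and 48.5 RPKM in red1Δ, 10.99 and 11.2 in mug174Δ, against 5.98 and 6.66 in WT, and nam3 (SPNCRNA.1696, chrII:4464625-4466286) had 44.04 and 62.6 RPKM in red1Δ, 19.7 and 20.9 in mug174Δ, against 10.003 and 10.9 in WT. Both were highest in red1Δ and clear of WT in mug174Δ (log2 difference 1.76, SE 0.11, adjusted p = 0.000534 for nam2, and log2 difference 1.60, SE 0.15, adjusted p = 0.00174 for nam3). In contrast nam5 (SPNCRNA.230, chrI:3753730-3754811), which lies within centromere 1, had 2.41 and 2.53 RPKM in red1Δ, 31.6 and 48.1 in mug174Δ, against 1.70 and 2.32 in WT. Here mug174Δ was far above WT and red1Δ just above it, and red1Δ lay below mug174Δ by a log2 difference of -3.74 (SE 0.24, adjusted p = 0.000555). Centromeric RNAs as a list followed nam5, with 8 above and 3 below of 18 tested, a median log2 difference of −0.12 in red1Δ and 1.76 in mug174Δ, and 12 of the 18 lower in red1Δ than in mug174Δ. All 18 had more than 20% of their sequence repeated elsewhere. Their reads may therefore be shared between copies, and the 18 values are not separate measurements. SPNCRNA.234, also in centromere 1, had 1.91 and 1.47 RPKM in red1Δ, 30.8 and 44.1 in mug174Δ, against 0.892 and 1.02 in WT, so its call in the mean of both strains (log2 difference 2.63, SE 0.20, adjusted p = 0.000861) came from mug174Δ.

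Small nucleolar RNAs, which guide the modification of ribosomal RNA, were more often above WT than below. Of 41 tested with a gene name of the sno or snR form, 27 were raised and 1 lowered, and 7 were raised in each strain by itself. Above WT in all 4 mutant libraries lay 14 (34.1%), against 1 below. Over all tested features 23.2% lay above and 17.2% were raised. Between the strains, 21 of the 41 were higher in red1Δ than in mug174Δ and none lower. A single member of the 41 carries a protein-coding identifier. By the form of the identifier the class held 48 tested features, with 33 raised, 1 lowered, 20 above and 1 below. For the 41 the median log2 difference was 1.64 in red1Δ and 0.11 in mug174Δ, and with either WT library left out the raised count was 16. In snoR38 (SPSNORNA.15, chrI:5144133-5144206) the levels were 18.7 and 19.1 RPKM in red1Δ, 40.1 and 44.5 in mug174Δ, against 1.66 and 5.35 in WT. On so short a feature 1 read is worth far more RPKM than on 1 kb, so its WT levels rest on few reads. This snoRNA was higher in mug174Δ than in red1Δ, though not beyond the test (-1.14 (SE 0.42, adjusted p = 0.120) for red1Δ over mug174Δ), and every mutant library exceeded WT (log2 difference 3.02, SE 0.36, adjusted p = 0.00343). The gene snoZ15 had 29.5 and 27.1 RPKM in red1Δ, 25.2 and 21.4 in mug174Δ, against 10.3 and 10.5 in WT, with both strains at similar height (log2 difference 1.26, SE 0.10, adjusted p = 0.00109). For snR42 the levels were 33.5 and 36.2 RPKM in red1Δ, 3.20 and 3.89 in mug174Δ, against 3.54 and 3.49 in WT, where mug174Δ overlapped WT and red1Δ did not.

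Genes of the core environmental stress response moved in part. Of 38 tested, 13 lay above WT in all 4 mutant libraries (34.2%, beside 23.2% of all tested features) and 4 below. Of the list 11 were called raised, where 17.2% of all tested features were, and 1 lowered. The median log2 difference was 0.22 in red1Δ and 0.05 in mug174Δ. With either WT library left out 5 were called raised, and without mug174Δ replicate 1 it was 7. The glutathione S-transferase gene gst2 (SPCC965.07c, chrIII:2295375-2296067) had 523 and 563 RPKM in both red1Δ replicates and 1029 and 1098 RPKM in both mug174Δ replicates, against 252 and 272 RPKM in both WT replicates. Both strains were well above WT (log2 difference 1.54, SE 0.09, adjusted p = 0.000489), and here red1Δ lay below mug174Δ, by -0.97 (SE 0.10, adjusted p = 0.00383) on the log2 scale. Polyubiquitin, encoded by ubi4 (SPBC337.08c, chrII:1044418-1045566), had 1492 and 1853 RPKM in both red1Δ replicates and 3059.6 and 2709.8 RPKM in both mug174Δ replicates, against 749 and 737 RPKM in both WT replicates. It showed the same order, with red1Δ between mug174Δ and WT (log2 difference 1.56, SE 0.14, adjusted p = 0.00142). The metal-binding metallothionein Zym1, encoded at chrI:2381730-2381882, had 395 and 653 RPKM in red1Δ, 363 and 337 in mug174Δ, against 89.4 and 131 in WT, and lsd90 had 74.5 and 89.3 RPKM in red1Δ, 63.6 and 43.3 in mug174Δ, against 17.3 and 17.7 in WT. In both genes the second red1Δ library was the highest of all (log2 difference 1.95, SE 0.23, adjusted p = 0.00330 for zym1, and log2 difference 1.87, SE 0.16, adjusted p = 0.00134 for lsd90). Not all of the list moved: hsp16, ctt1 and atf1, a chaperone, the catalase and the transcription factor of this response, had log2 differences of 0.01, -0.09 and 0.01 and were not called.

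Atf1 binds sites with the letters TGACGT or, on the other strand, ACGTCA. They were found in 7.40% of the promoters of protein-coding genes above WT and 4.31% of those below, beside 5.95% of all 5142 promoters read, each taken as 250 bases before to 50 after the annotated gene start. Of the 38 stress genes tested, 10 held the site in the promoter read, and gst2, ubi4, zym1 and lsd90 did not. Windows are shown for the stress genes above WT that hold the site, read on the strand of the gene with the site in capitals. This is the element through which Atf1 is known to act.
gst3, chrI:3116927-3116956, - strand: tatttcggtgacTGACGTgcatatgaggtg
grx1, chrI:4874135-4874164, + strand: tacgtgctccacTGACGTatgaattagcaa
ntp1, chrII:206500-206529, + strand: gtcaggtagactACGTCAttgagtaacgaa
gpd1, chrII:4035431-4035460, + strand: atgtcaggcatgTGACGTttggtatcacct
Of these, the glutathione S-transferase gene gst3 had 244 and 276 RPKM in red1Δ, 238 and 226 in mug174Δ, against 162 and 170.4 in WT and was raised (log2 difference 0.56, SE 0.08, adjusted p = 0.00541), as was the glutaredoxin gene grx1 (adjusted p = 0.0436), while the trehalase gene ntp1 (adjusted p = 0.0534) and the glycerol-phosphate dehydrogenase gene gpd1 (adjusted p = 0.108) were not called.

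Among the 12 genes named by size, several belong to none of the lists described so far. SPBPB21E7.04c and fub2 count among the genes within 100 kb of a chromosome end that are described below. SPBPB21E7.04c (chrII:64669-65514), annotated as a catechol O-methyltransferase and located near the left end of chromosome II, had 33.96 and 176 RPKM in both red1Δ replicates and 61.7 and 65.8 RPKM in both mug174Δ replicates, against 7.25 and 10.8 RPKM in both WT replicates. All mutant libraries were several times above WT, but the second red1Δ library was several times the first (log2 difference 2.92, SE 0.59, adjusted p = 0.0135), and the call was lost when either WT library was left out. SPAC4H3.08 (chrI:3841581-3842441), annotated as a 3-hydroxyacyl-CoA dehydrogenase, had 80.9 and 175 RPKM in red1Δ, 125 and 185 in mug174Δ, against 27.6 and 32.8 in WT, and fub2 (SPBP4G3.03, chrII:4453078-4453803), which encodes a protein of the PI31 family of proteasome regulators, had 8.72 and 14.2 RPKM in red1Δ, 15.2 and 19.3 in mug174Δ, against 2.28 and 3.00 in WT. Both strains exceeded WT in both genes, with adjusted p = 0.00541 for SPAC4H3.08 and 0.00214 for fub2. SPAPB1A11.02, annotated as an esterase or lipase, had 8.40 and 28.2 RPKM in red1Δ, 8.49 and 20.5 in mug174Δ, against 2.47 and 4.59 in WT, with replicates far apart in each deletion strain (log2 difference 1.93, SE 0.55, adjusted p = 0.0384). SPCC794.04c, annotated as a membrane transporter, had 19.4 and 24.2 RPKM in red1Δ, 20.7 and 28.99 in mug174Δ, against 5.49 and 8.51 in WT (log2 difference 1.68, SE 0.22, adjusted p = 0.00406).

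Genes of iron, phosphate and chromatin each held a few members that moved. Of 13 iron genes, 5 lay above (38.5%) and 5 below (38.5%), with 3 raised and 3 lowered. Over all tested features 23.2% lay above and 24.8% below, and 17.2% were called in each direction. The siderophore transporter gene str1 had 32.6 and 32.1 RPKM in red1Δ, 31.9 and 26.5 in mug174Δ, against 12.5 and 12.2 in WT, and the 4 mutant libraries agreed closely (log2 difference 1.28, SE 0.10, adjusted p = 0.00103). The reductase gene frp2 had 7.41 and 8.45 RPKM in red1Δ, 8.36 and 8.37 in mug174Δ, against 4.67 and 4.71 in WT (log2 difference 0.73, SE 0.12, adjusted p = 0.00778), whereas pcl1, which encodes a vacuolar iron transporter, had 299 and 304 RPKM in red1Δ, 302 and 288 in mug174Δ, against 428 and 458 in WT and was lowered (log2 difference -0.57, SE 0.08, adjusted p = 0.00440). In the phosphate list of 8, tgp1 (SPBC1271.09, chrII:350783-352369), a transporter gene that is known to be kept silent by a non-coding RNA transcribed across its promoter, had 31.2 and 31.6 RPKM in red1Δ, 21.03 and 19.5 in mug174Δ, against 12.3 and 11.8 in WT (log2 difference 1.04, SE 0.09, adjusted p = 0.00109). The RNA prt2 (SPBC8E4.02c, chrII:4442542-4445970), transcribed upstream of the phosphate transporter gene pho84 and listed under a protein-coding identifier, had 48.4 and 40.6 RPKM in red1Δ, 13.8 and 15.7 in mug174Δ, against 9.98 and 10.4 in WT (log2 difference 1.29, SE 0.11, adjusted p = 0.00134). Both were above WT in each strain and higher in red1Δ. The alkaline phosphatase gene pho8 went the other way, with 51.6 and 57.01 RPKM in red1Δ, 58.9 and 55.1 in mug174Δ, against 83.9 and 81.8 in WT (log2 difference -0.57, SE 0.08, adjusted p = 0.00459).

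Of 22 RNAi and heterochromatin genes, 10 lay above WT in all 4 mutant libraries (45.5%, beside 23.2% of all tested features) and 1 below. Called raised were 8, where 17.2% of all tested features were, and 1 was lowered, while 4 were raised in each strain by itself. The median log2 difference was 0.25 in red1Δ and 0.09 in mug174Δ. Only 2 were called raised with either WT library left out, 3 without mug174Δ replicate 1 and 5 without mug174Δ replicate 2. The RNA-directed RNA polymerase gene rdp1 had 51.8 and 55.98 RPKM in red1Δ, 50.4 and 43.6 in mug174Δ, against 31.5 and 28.2 in WT, and hrr1, a helicase gene of the same complex, had 31.7 and 30.8 RPKM in red1Δ, 31.01 and 31.4 in mug174Δ, against 22.7 and 22.2 in WT. The chromodomain protein gene chp2 had 56.5 and 53.9 RPKM in red1Δ, 42.1 and 44.2 in mug174Δ, against 32.7 and 31.6 in WT. The libraries of all 3 were free of overlap, by modest margins (adjusted p = 0.00410 for rdp1, 0.00698 for hrr1 and 0.00367 for chp2). Swi6, an HP1 protein of fission yeast, was the 1 member lowered, with 198 and 180.2 RPKM in red1Δ, 158 and 156 in mug174Δ, against 237 and 230.5 in WT (log2 difference -0.44, SE 0.07, adjusted p = 0.00749). In the MTREC and Mmi1 list of 12, mmi1 itself was raised in both strains, with 65.6 and 60.4 RPKM in red1Δ, 61.7 and 65.7 in mug174Δ, against 41.2 and 49.05 in WT (log2 difference 0.49, SE 0.10, adjusted p = 0.0123), and cbc1, the large subunit of the cap-binding complex, was lowered, with 51.4 and 42.7 RPKM in red1Δ, 68.97 and 73.1 in mug174Δ, against 91.2 and 94.6 in WT (log2 difference -0.68, SE 0.09, adjusted p = 0.00475). The count of this list includes red1, which is absent from red1Δ by design.

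Ribosomal protein genes were the largest single group below WT. Of 79 tested genes of the large subunit, 76 lay below WT in all 4 mutant libraries and none above, and of 50 of the small subunit 49 lay below and none above. Called lowered were 74 and 49, with median log2 differences of −0.98 in red1Δ and −0.73 in mug174Δ for the large subunit, and −0.99 and −0.72 for the small subunit. Together they took 12.8% and 10.1% of all reads in red1Δ and 11.9% and 12.1% in mug174Δ, against 16.9% and 17.9% in WT. The calls depended on the number of WT and mug174Δ libraries: for the large subunit 11 were left without WT replicate 1, 10 without WT replicate 2, 37 without mug174Δ replicate 1 and 41 without mug174Δ replicate 2, and for the small subunit 5, 3, 24 and 28. Without scaling the medians of the mean of both strains stayed below 0, at −0.62 and −0.60, in place of −0.88 and −0.87.

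The gene rpl1603 (SPBC2G2.05, chrII:3443267-3443918), for protein uL13 of the large subunit, had 116 and 95.4 RPKM in both red1Δ replicates and 90.9 and 92.3 RPKM in both mug174Δ replicates, against 294 and 320.3 RPKM in both WT replicates. All mutant libraries stood far below both WT libraries and close to each other (log2 difference -1.64, SE 0.10, adjusted p = 0.000494). The gene rpl29 (SPBC776.01, chrII:3172323-3172561) had 659 and 532 RPKM in red1Δ, 678 and 669 in mug174Δ, against 1259 and 1297 in WT, with the second red1Δ library lowest (log2 difference -1.02, SE 0.11, adjusted p = 0.00281). In the small subunit rps1202 (SPBC1685.02c, chrII:498487-498990) had 1696 and 1360.5 RPKM in red1Δ, 1309.8 and 1335 in mug174Δ, against 2962 and 3537 in WT, and rps29 (SPBC1685.09, chrII:516442-516735) had 149.9 and 115 RPKM in red1Δ, 121 and 121 in mug174Δ, against 224 and 238 in WT. For both, mutants and WT were far apart compared with the replicates (log2 difference -1.19, SE 0.15, adjusted p = 0.00403 for rps1202, and log2 difference -0.87, SE 0.11, adjusted p = 0.00418 for rps29). The exceptions were rpl3002, rpp202, rpl102 and rps1401. In rpl3002, red1Δ lay above WT, with 1012 and 524 RPKM in red1Δ, 253 and 237 in mug174Δ, against 276 and 299 in WT, and in rps1401 the 2 WT libraries were themselves far apart, with 267 and 308 RPKM in red1Δ, 519 and 472 in mug174Δ, against 271 and 509 in WT. The gene rpl102 was below WT in mug174Δ alone, with 63.4 and 47.7 RPKM in red1Δ, 27.2 and 26.5 in mug174Δ, against 54.4 and 57.4 in WT, and rpp202 in red1Δ alone, with 955 and 771 RPKM in red1Δ, 1944 and 1826 in mug174Δ, against 1669 and 1628 in WT.

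Many ribosomal protein promoters of fission yeast carry the HomolD box, CAGTCACA or TGTGACTG on the other strand, which serves as a core promoter element. It was present in 52 of the 79 large subunit and 32 of the 50 small subunit promoters, and in 7.80% of the promoters of all protein-coding genes below WT, 0.417% of those above, and 2.66% of all promoters read. Of the 131 tested genes with the box, 105 lay below WT in all 4 mutant libraries. Of the 47 of them that do not encode ribosomal proteins, 23 lay below and 4 above. The box is shown in capitals for the 4 ribosomal protein genes with it that had the smallest p, on the strand of the gene, because this element is known from the promoters of the group.
rpp102, chrII:4009431-4009460, - strand: ggcaaataaaaCAGTCACActactttacac
rps21, chrII:2083791-2083820, + strand: cagggtagggtTGTGACTGtcagaccgaag
rpl4101, chrI:5402275-5402304, - strand: tcttaaaagagCAGTCACAatgtgctatac
rpl3201, chrII:4351818-4351847, + strand: aagttttagagCAGTCACAtagttcgttca
The first base of the box lay 53, 66, 47 and 49 bases before the annotated gene start, in this order. The 4 genes had 693 and 523 RPKM in red1Δ, 709.6 and 681 in mug174Δ, against 1209 and 1331 in WT for rpp102, for the acidic stalk protein P1, and 1138 and 932 RPKM in red1Δ, 1285 and 1190.1 in mug174Δ, against 2118 and 2054 in WT for rps21. The levels were 1421 and 1197 RPKM in red1Δ, 1301 and 1209 in mug174Δ, against 2439.7 and 2269 in WT for rpl4101, and 1150.0 and 919 RPKM in red1Δ, 1269.8 and 1250.3 in mug174Δ, against 2046 and 2340.3 in WT for rpl3201. In each of them the lowest WT library was well above the highest mutant library.

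**Figure D3:**
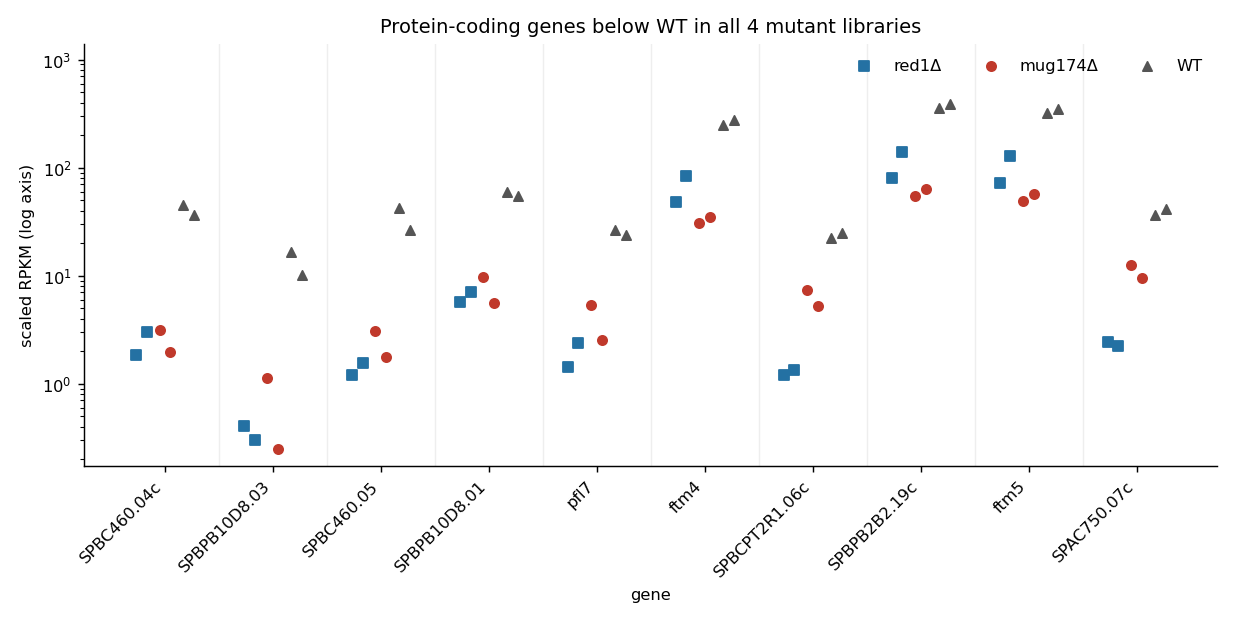
Level of the 10 lowered protein-coding genes in each library, as scaled RPKM on a log axis, with squares for red1Δ, circles for mug174Δ and triangles for WT, 2 points per strain. WT lies highest in every gene, and in SPBC460.04c it stands at 44.97 and 36.2 RPKM while no mutant library exceeds 3.14 RPKM.

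The machinery around the ribosome moved less. Of 34 translation initiation and elongation factor genes, 25 lay below WT in all 4 mutant libraries (73.5%, beside 24.8% of all tested features) and 1 above. The median log2 difference was −0.62 in red1Δ and −0.28 in mug174Δ. Called lowered were 17, where 17.2% of all tested features were. None was left when either WT library was dropped and 3 when either mug174Δ library was, while 27 were called without red1Δ replicate 1. The gene tif212, for the beta subunit of initiation factor eIF2, had 634 and 547 RPKM in red1Δ, 796 and 752 in mug174Δ, against 1036 and 1049 in WT. It was lower in red1Δ than in mug174Δ, though within the limits of the test (-0.39 (SE 0.12, adjusted p = 0.0755)). The gene tif223, for the gamma subunit of its exchange factor eIF2B, had 161 and 147 RPKM in red1Δ, 166 and 165 in mug174Δ, against 211 and 202 in WT (log2 difference -0.37, SE 0.07, adjusted p = 0.0128). Ribosome biogenesis factors lay below about as often as all tested features, with 13 of 51 below (25.5%, beside 24.8%) and 2 above. Of these 51, 5 were called lowered and 3 raised, where 17.2% of all tested features were called in each direction. The lowered count was 22 without red1Δ replicate 1, 10 without red1Δ replicate 2, 2 without either mug174Δ library and 0 without either WT library. The member with the smallest p was nop10, a protein of the box H/ACA RNPs, with 329 and 256 RPKM in red1Δ, 386 and 351 in mug174Δ, against 542 and 552 in WT (log2 difference -0.74, SE 0.12, adjusted p = 0.00680). The median of the biogenesis list was −0.35 in red1Δ and 0.05 in mug174Δ, and without scaling its median over both strains turned to 0.08, so no direction is given for it.

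Amino acid and sulfur metabolism stood below WT in both strains to a similar degree. Of 48 amino acid synthesis genes, 25 lay below in all 4 mutant libraries and none above, 21 were called lowered and none raised, and 16 were lowered in each strain by itself. The median log2 difference was −0.35 in red1Δ and −0.47 in mug174Δ. Without WT replicate 1 the count was 9, without WT replicate 2 it was 11, and without red1Δ replicate 2 it was 39. The histidine gene his1 (SPAC25G10.05c, chrI:4304689-4305780) had 382 and 322 RPKM in both red1Δ replicates and 307 and 334 RPKM in both mug174Δ replicates, against 764 and 778 RPKM in both WT replicates. The highest mutant library was far under the lowest WT library (log2 difference -1.20, SE 0.10, adjusted p = 0.00109). The lysine gene lys2 had 160.2 and 164 RPKM in red1Δ, 208 and 199.95 in mug174Δ, against 355 and 353 in WT (log2 difference -0.96, SE 0.07, adjusted p = 0.000828), and the leucine genes leu1 and leu2 had 569.6 and 605 RPKM in red1Δ, 570.3 and 545 in mug174Δ, against 939.8 and 918 in WT for leu1 and 324 and 354 RPKM in red1Δ, 256 and 257 in mug174Δ, against 507 and 489 in WT for leu2. For leu2 and for shm2, a serine hydroxymethyltransferase gene with 121 and 125 RPKM in red1Δ, 78.7 and 81.9 in mug174Δ, against 156 and 159 in WT, mug174Δ was the lower of the 2 strains, and red1Δ lay above it by 0.40 (SE 0.09, adjusted p = 0.0387) and 0.61 (SE 0.08, adjusted p = 0.00620).

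Of 12 genes of sulfate assimilation and methionine metabolism, 8 lay below and 1 above, and 8 were called lowered, with a median log2 difference of −0.50 in red1Δ and −0.39 in mug174Δ. Without WT replicate 1 the count was 2, 4 without WT replicate 2 or without mug174Δ replicate 1, and 5 without mug174Δ replicate 2. The adenylylsulfate kinase gene met14 had 394 and 289 RPKM in red1Δ, 391 and 385 in mug174Δ, against 731 and 741 in WT, and sam1, which makes S-adenosylmethionine, had 1419.8 and 1225 RPKM in red1Δ, 911 and 1212 in mug174Δ, against 2039 and 2228 in WT. Both were free of overlap (log2 difference -1.02, SE 0.13, adjusted p = 0.00405 for met14, and log2 difference -0.86, SE 0.16, adjusted p = 0.00998 for sam1). The nitrogen list gave 5 below (26.3%) and 3 above of 19, with 5 lowered, where 24.8% of all tested features lay below. It includes the malate permease gene mae1, with 284 and 283 RPKM in red1Δ, 253 and 279 in mug174Δ, against 463 and 567 in WT (log2 difference -0.90, SE 0.11, adjusted p = 0.00319), and the amino acid permease gene aat1, described with its neighbours below.

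The most strongly lowered genes lay close to chromosome ends or on a contig listed apart from the 3 chromosomes. Of 117 tested protein-coding genes within 100 kb of an end of chromosome I or II, 54 were below WT in all 4 mutant libraries and 15 above, with 43 called lowered and 7 raised, and 34 were lowered in each strain by itself. Their median log2 difference was −0.68 in red1Δ and −0.58 in mug174Δ, and the lowered count was 23 without WT replicate 1 and 24 without WT replicate 2. In the outermost 25 kb, 16 of 32 genes lay below and 1 above, with medians of −1.40 in red1Δ and −0.42 in mug174Δ. From 25 to 50 kb it was 16 of 34, at −0.62 and −0.82, and from 50 to 100 kb 22 of 51, at −0.37 and −0.63. Beyond 400 kb, 955 of 3329 genes lay below, which is 28.7%, at −0.07 and −0.02. Many of the outermost genes are near-copies of one another, with more than 20% of their sequence repeated elsewhere in 31 of the 32, so their reads may be shared between copies and single values are uncertain. Among the genes within 400 kb of an end, the plot of fold change by distance shows most of the strongly lowered ones in the first 100 kb. Less lowered ones were spread over the 400 kb. Genes further along the arms are not plotted, among them SPAC8E11.10 with a log2 difference of -1.45.

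**Figure D4:**
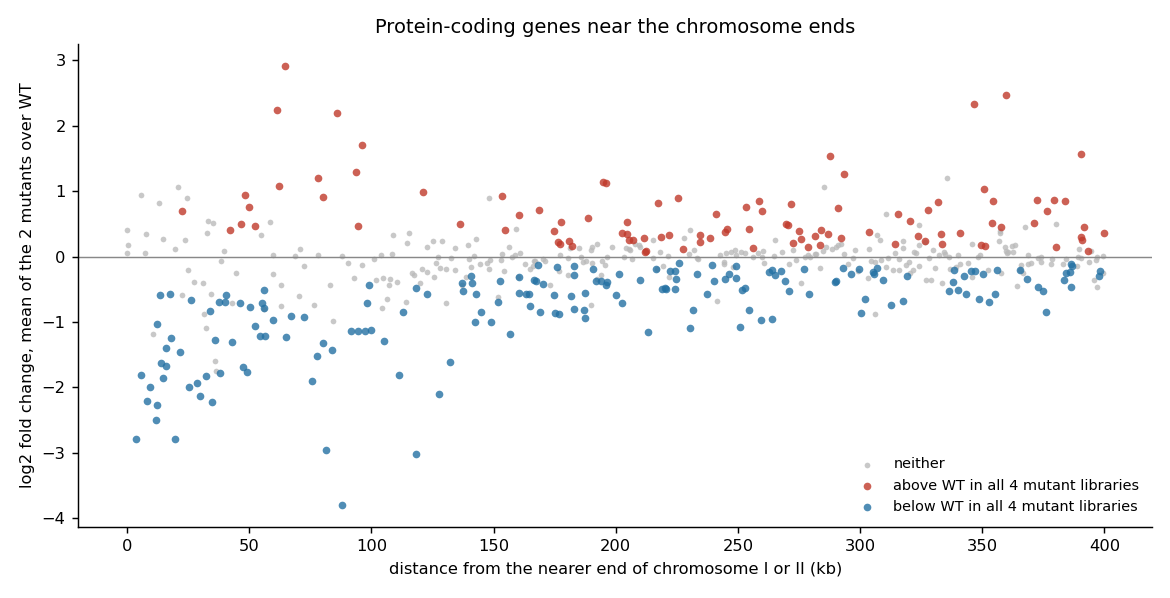
Log2 fold change of the mean of both deletion strains over WT for protein-coding genes within 400 kb of an end of chromosome I or II, against the distance from the nearer end in kb. Genes below WT in all 4 mutant libraries make up 50% of those in the first 25 kb, against 26.3% between 200 and 400 kb.

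Genes of the ftm family of predicted membrane proteins near the ends illustrate this. The gene ftm4 (SPAC750.05c, chrI:5566206-5567240) had 47.7 and 82.9 RPKM in both red1Δ replicates and 30.9 and 34.5 RPKM in both mug174Δ replicates, against 246 and 274 RPKM in both WT replicates. Both strains were far below WT (log2 difference -2.50, SE 0.21, adjusted p = 0.00110), and red1Δ lay above mug174Δ by 0.93 (SE 0.24, adjusted p = 0.0536), which was not past the test. Its near-copies ftm5, with 72.5 and 127 RPKM in red1Δ, 49.5 and 57.5 in mug174Δ, against 319 and 349.7 in WT, and SPBPB2B2.19c, with 79.5 and 139 RPKM in red1Δ, 55.1 and 62.997 in mug174Δ, against 353 and 386 in WT, followed it library by library. SPAC750.07c (chrI:5575193-5575564) and SPBCPT2R1.06c (chrII:4519772-4520391) had the reverse order of strains, with 2.43 and 2.23 RPKM in red1Δ, 12.5 and 9.43 in mug174Δ, against 36.8 and 41.2 in WT in the one and 1.21 and 1.34 RPKM in red1Δ, 7.35 and 5.24 in mug174Δ, against 22.3 and 24.6 in WT in the other. Both were lower in red1Δ than in mug174Δ, by -2.01 (SE 0.17, adjusted p = 0.00165) and -1.92 (SE 0.19, adjusted p = 0.00324).

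A run of neighbours on chromosome II, from SPBPB10D8.01 to SPNCRNA.293 (chrII:81295-121643), was below WT almost throughout. This stretch was singled out after its values were seen, so it carries no test. Of 18 features listed there, 15 were tested, 13 lay below WT in all 4 mutant libraries and none above, and the median log2 difference was −1.48 in red1Δ and −1.34 in mug174Δ. At its left edge the cysteine transporter gene SPBPB10D8.01 (chrII:81295-82953) had 5.68 and 7.01 RPKM in both red1Δ replicates and 9.78 and 5.63 RPKM in both mug174Δ replicates, against 59.98 and 54.1 RPKM in both WT replicates, and SPBPB10D8.03 (chrII:87727-89029) had 0.408 and 0.300 RPKM in red1Δ, 1.12 and 0.249 in mug174Δ, against 16.6 and 10.1 in WT. No mutant library came near WT in either gene. SPBPB10D8.04c to SPBPB10D8.07c, 4 near-identical transporter genes, followed at higher levels, with 237 and 246 RPKM in red1Δ, 284 and 202 in mug174Δ, against 601 and 465 in WT for the first and 266 and 276 RPKM in red1Δ, 315 and 226 in mug174Δ, against 665 and 523 in WT for the last, so reads could be split among them. Further along came the amino acid permease gene SPBC359.01, with 8.68 and 10.4 RPKM in red1Δ, 12.8 and 12.2 in mug174Δ, against 27.2 and 27.9 in WT, and aat1 (SPBC359.03c, chrII:111309-113048), with 11.7 and 7.81 RPKM in red1Δ, 23.2 and 15.6 in mug174Δ, against 50.9 and 46.9 in WT. The cell surface glycoprotein gene pfl7 (SPBC359.04c, chrII:118252-119328) had 1.43 and 2.36 RPKM in red1Δ, 5.34 and 2.56 in mug174Δ, against 26.7 and 23.5 in WT. All 3 genes were lowered in both strains, and red1Δ had the lower mean in each, without a call between the strains. The non-coding RNAs SPNCRNA.291, SPNCRNA.1310 and SPNCRNA.293 between these genes were lowered too, by log2 differences of -2.24, -2.17 and -2.99. The 2 tested features of the stretch that did not lie below WT in all 4 mutant libraries were SPNCRNA.290 and SPNCRNA.292.

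**Figure D5:**
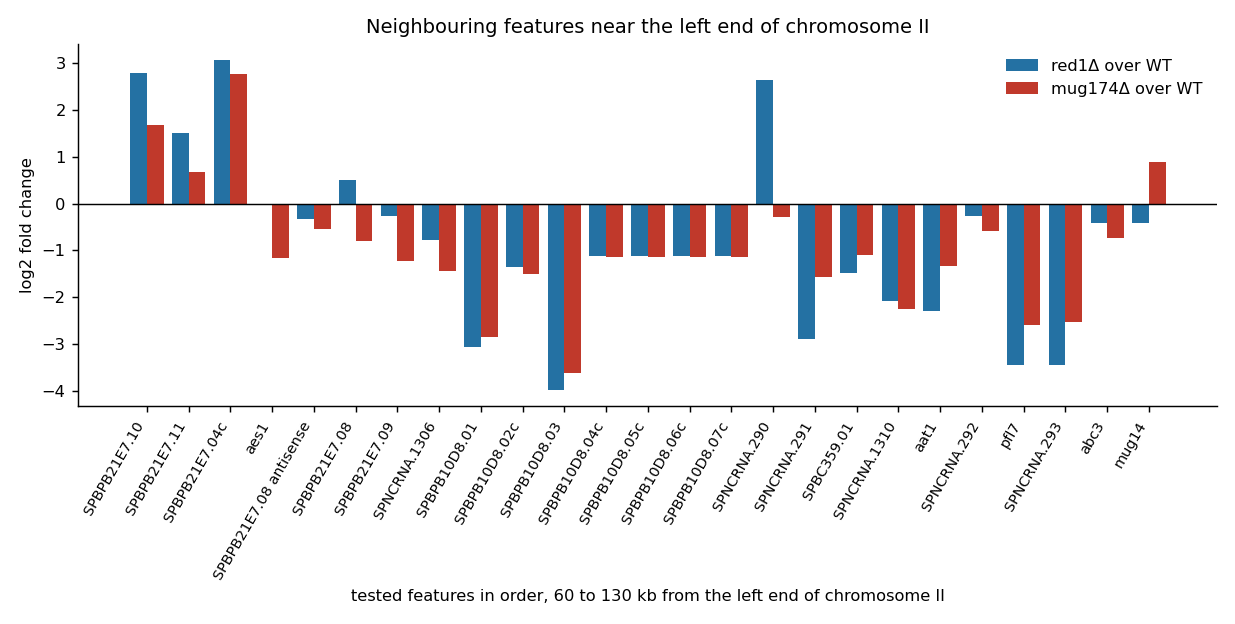
Log2 fold change of red1Δ (blue) and mug174Δ (red) over WT for the tested features between 60 and 130 kb from the left end of chromosome II, in order along the chromosome. Bars run below 0 from SPBPB10D8.01 to SPNCRNA.293 except for red1Δ at SPNCRNA.290.

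The contig AB325691, which the table lists apart from the 3 chromosomes, held 5 genes, and all 5 lay below WT in all 4 mutant libraries. Where this contig lies relative to the stretch of chromosome II was not examined. SPBC460.04c (chrAB325691:14073-15248) had 1.85 and 3.03 RPKM in both red1Δ replicates and 3.14 and 1.97 RPKM in both mug174Δ replicates, against 44.97 and 36.2 RPKM in both WT replicates, and SPBC460.05 (chrAB325691:16470-18062) had 1.20 and 1.56 RPKM in red1Δ, 3.04 and 1.76 in mug174Δ, against 42.6 and 26.7 in WT. Both were lower than WT by more than 3 on the log2 scale in either strain (log2 difference -3.80, SE 0.24, adjusted p = 0.000637 for SPBC460.04c, and log2 difference -3.89, SE 0.27, adjusted p = 0.000757 for SPBC460.05). The vacuolar amino acid transporter gene vba2 had 21.7 and 17.9 RPKM in red1Δ, 22.9 and 20.6 in mug174Δ, against 63.6 and 56.4 in WT (log2 difference -1.51, SE 0.11, adjusted p = 0.000835). Among the lowered non-coding features named by size, SPNCRNA.1094, SPNCRNA.1095 and SPRRNA.51 lay at the left end of chromosome III beside ribosomal DNA and consisted of repeated sequence. SPNCRNA.1094 had 484 and 641 RPKM in red1Δ, 705 and 962 in mug174Δ, against 1569 and 2836 in WT, and its 2 WT libraries differed from each other by more than the lower of them did from the nearest mutant library.

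The Tf2 retrotransposons show why order alone is not a call. All 13 copies lay above WT in all 4 mutant libraries and none was called raised. Tf2-1 had 121 and 416 RPKM in red1Δ, 146 and 129 in mug174Δ, against 96.9 and 79.2 in WT (adjusted p = 0.126 for both strains together). The second red1Δ library stood far above the rest, while the other 3 mutant libraries exceeded WT by less, with a log2 difference of 0.65 in mug174Δ. The copies are near-identical and share reads, so the 13 values are not separate measurements. Without red1Δ replicate 1 all 13 were called raised, and 12 without red1Δ replicate 2.

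Size differed between the strains for part of the common set. Of the 1380 features above WT, 200 differed between red1Δ and mug174Δ (14.5%), 166 of them higher in red1Δ and 34 lower, beside 775 of all 5938 (13.1%), of which 439 were higher (7.39%) and 336 lower (5.66%). Of the 1475 below WT, 111 differed (7.53%), 24 higher in red1Δ and 87 lower. The difference is taken between the 2 deletion strains, while its error comes from all 6 libraries. The share that differed was thus near that of all tested features for the set above WT and under it for the set below. The calls over all features rested on single libraries: without mug174Δ replicate 1 they were 142 higher and 68 lower in red1Δ, without mug174Δ replicate 2 they were 99 and 41, and without red1Δ replicate 1 they were 776 and 988. Leaving out red1Δ replicate 2 gave 232 and 243, leaving out WT replicate 1 gave 257 and 170, and leaving out WT replicate 2 gave 265 and 171. The median log2 difference from WT was 0.53 in red1Δ and 0.41 in mug174Δ for the features above, and −0.47 and −0.36 for those below.

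A further 12 features were called in each strain in opposite directions and so belong to neither set. The snoRNA snR33 (SPSNORNA.38, chrII:2447904-2448048) had 176 and 169.8 RPKM in red1Δ, 12.1 and 15.3 in mug174Δ, against 51.6 and 49.6 in WT, and snR46 had 85.5 and 92.5 RPKM in red1Δ, 3.24 and 3.86 in mug174Δ, against 6.21 and 6.29 in WT. In both, red1Δ stood above and mug174Δ below WT. The telomere-linked helicase gene tlh1 (SPAC212.11, chrI:1-5662), the first gene of chromosome I, had 5.17 and 2.37 RPKM in red1Δ, 20.02 and 16.1 in mug174Δ, against 7.35 and 8.24 in WT, and its copy tlh2 had 5.05 and 2.35 RPKM in red1Δ, 19.8 and 16.1 in mug174Δ, against 7.50 and 7.96 in WT. SPAC212.09c, a neighbour of tlh1, had 0.161 and 0.266 RPKM in red1Δ, 9.88 and 6.19 in mug174Δ, against 1.37 and 1.47 in WT. These 3 features were below WT in red1Δ and above it in mug174Δ, as were their near-copies SPAC750.08c and SPBCPT2R1.07c.

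Further lists were mixed, or leaned to a single side with few calls or few members. Over all tested features 23.2% lay above and 24.8% below, and 17.2% were called in each direction. Of 52 respiratory chain and ATP synthase genes, 6 lay above (11.5%) and 12 below (23.1%), with 6 raised and 10 lowered. Heat shock chaperones gave 2 above and 8 below (40%) of 20, with 1 raised and 3 lowered. Glycolysis gave 1 above and 4 below (26.7%) of 15, and hexose transporters 2 above (28.6%) and none below of 7. Histone genes gave 3 below (33.3%) and none above of 9, with 1 lowered. Exosome and TRAMP genes gave 7 below (43.8%) and none above of 16, with 3 lowered. Splicing factor genes of the prp and cwf families were split into 10 above (16.7%) and 16 below (26.7%) of 60, with 7 raised and 10 lowered. Genes of cell separation gave 1 lowered of 6. Of the 5 tested genes that serve as selection markers in laboratory strains, 4 lay below (80%) and none above, and 3 were lowered, among them leu1.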

How the data were processed

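RNA was extracted from whole cells of red1Δ, mug174Δ and WT strains and made into directional libraries. The labels name an rRNA depletion kit whereas the study's methods describe poly(dT) selection, and the methods name HISAT2 as the aligner whereas the submitters' processing notes list StringTie 1.3.1c and STAR 2.5.3a besides FastQC 0.11.6; neither choice is certain here. The deposited table holds RPKM values per library, which the authors computed over the coding length of genes with the methods naming genome build ASM294v2. Coordinates are given as in that table. The table's own fold changes and p-values, which the authors computed for their own comparisons, were not used. No per-sample column was left unmapped (0 columns).

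RPKM values were whole multiples of the worth of 1 read in 100% of cases (tolerance 0.01 reads), which gave read totals per library. On a feature of 1 kb, 1 read was worth 0.0537 to 0.0604 RPKM, so low levels are limited by counting error. Libraries were scaled by median ratios (to the geometric mean of all 6, over 6029 features above 0 in each). Features with at least 1 scaled RPKM in 2 or more libraries were tested on log2(scaled RPKM + 0.5) with limma 3.58.1 in R 4.3.3, 1 mean per strain, eBayes with trend, two-sided, with Benjamini-Hochberg adjustment over 5938 features and a threshold of 0.05. The log2 values were computed here from the deposited RPKM. The rule of mutant libraries beyond WT uses the same values as this test. The fit was tested on simulated data, and no set test was run.

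Protein-coding and non-coding classes follow the form of the identifiers. Gene lists, members and tests were chosen with earlier results of these data known. Features were named by rule: among those beyond WT in all 4 mutant libraries, called, and at a mean of at least 5 RPKM, the first 12 raised and 10 lowered protein-coding and 8 raised and 6 lowered non-coding features by the smaller of the 2 strains' fold changes, and up to 4 members of each list by p. Other named features (those shown for a sequence, at the limits, as exceptions, in opposite directions or in the chromosome II stretch) were chosen after their values were seen. Sequences, promoters and motifs were read from RefSeq assembly ASM294v3 by identifier (6851 features matched). Start and end in the table and in RefSeq were identical for 1923 of all matched features, among them 1695 of the 1708 non-coding ones, so they differed for most protein-coding genes, whose windows and promoters carry RefSeq coordinates. Alternatives were other pseudocounts, filters and scalings, no trend, a replicate block, 1 mean for all mutants, voom on the recovered reads and leaving out each library.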

Additional observations from a re-analysis of the deposited data

Results flagged for a closer look

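The effects of the 2 deletions were compared within the common set by a test of red1Δ against mug174Δ (limma, adjusted p under 0.05). Among the features above WT in all 4 mutant libraries, 200 of 1380 differed (14.5%), with 166 higher in red1Δ, beside 775 of all 5938 tested features (13.1%). Among those below WT, 111 of 1475 differed (7.53%), with 87 lower in red1Δ. A further 12 features were called in each strain against the shared WT libraries with opposite signs, 4 of them snoRNAs that stood above WT in red1Δ and below it in mug174Δ (snR33, snR46, snR51b and snoR69).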

How the results depend on the processing

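Without scaling, the calls for both strains were 2492 raised and 464 lowered, the features beyond WT 2846 above and 566 below, those called in each strain 1014 raised and 204 lowered, and those that differed between red1Δ and mug174Δ 958 higher and 195 lower; cdc37 turned to a log2 difference of 0.0011 (adjusted p = 0.991). With 1 mean for all 4 mutant libraries, 328 features were raised and 449 lowered, and all 777 were among the 2043 called above. Leaving out 1 library gave 341 to 1243 raised and 250 to 1390 lowered features, 1515 to 1784 above and 1594 to 1861 below WT, 23 to 545 raised and 33 to 733 lowered in each strain, and 99 to 776 higher and 41 to 988 lower in red1Δ than in mug174Δ. The lowest counts of both strains against WT came without a WT library, and of 600 features called without WT replicate 1, 587 were among the 2043. Other pseudocounts, filters and scaling over protein-coding features, no trend and voom weights kept every such count within 1.5 times. Named genes kept their direction under these alternatives except cdc37, and 79 calls of single genes were lost, 55 of them with 1 mean for all mutant libraries. Over the 6 settings that leave out 1 library, the 158 named genes lost 114 calls and gained 24, with 43 lost without WT replicate 1 and 42 without WT replicate 2. The labels number replicates 1 and 2 in each strain but tie no number to a culture or day, and deviations of same-numbered libraries correlated at 0.06 between mug174Δ and red1Δ, 0.20 between mug174Δ and WT and 0.23 between red1Δ and WT. A replicate block gave 1127 raised and 1163 lowered features and moved the count lower in red1Δ than in mug174Δ to 548, in place of 336. Where a count moved, the cause was not tested. Depth limits features near 1 RPKM, where a few reads decide a level.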
